A study of Mus musculus with 12 samples.

Results

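The Fanconi anaemia pathway repairs DNA interstrand crosslinks, and 10 of its genes are described here by the INO80 and H2A.Z peaks at them in mouse spermatogenic cells. The genes were taken from a list by name: Fanca, Fancb, Fancc and Fancl, which encode subunits of the core ubiquitin ligase complex; Fancm, whose product anchors that complex on DNA; Fancd2 and Fanci, which encode the clamp that the complex ubiquitinates; the helicase genes Blm and Brip1; and Slx4, which encodes a scaffold for structure-specific nucleases. All 10 were found among 21887 protein-coding genes of the RefSeq table on GRCm38.p6 (mm10). A gene's window ran over its annotated body and 5 kb on both sides.

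In the pathway, the core complex attaches ubiquitin to the Fancd2 and Fanci proteins at a stalled replication fork, and the modified clamp brings in nucleases, helicases and recombination factors. In germ cells the pathway is known for the loss of germ cells that its mutants show, and in mouse spermatocytes several of its proteins gather on the silenced sex chromosomes. INO80 drives, as its ATPase, a complex that remodels chromatin, and H2A.Z is a histone H2A variant that is enriched in the nucleosomes flanking active and poised gene starts and that this complex can move or exchange.

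Chromatin immunoprecipitation and sequencing was done on spermatogenic cells of testes at postnatal day 18, from mice of mixed background. INO80 was precipitated from wild-type cells. H2A.Z was precipitated from Ino80cKO cells, which carry a testis-specific Ino80 deletion made by Stra8-Cre, a recombinase expressed from a premeiotic germ cell promoter, and from Ino80WT cells; each of these 3 ChIP groups and its input group has 2 libraries, 12 libraries in all. Cells were obtained by digesting tubules and filtering, so somatic cells may remain, and peak positions hold no RNA by which the labelled cell type or the deletion could be checked.

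The lists held 18139 INO80 peaks (median width 678 bp), 26199 Ino80cKO H2A.Z peaks (422 bp) and 33827 Ino80WT H2A.Z peaks (460 bp). Since a list represents its whole group and holds positions only, replicate errors could not be given, genotypes could not be tested against each other, and depth is unknown. A peak that is narrow or missing in a list can reflect fewer reads or a stricter threshold as well as less protein, and these cannot be told apart. In the windows of all protein-coding genes, 79.4% of genes with any H2A.Z peak had fewer bases under H2A.Z in Ino80cKO than in Ino80WT cells, and the values of the 10 genes are read against that level.

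The promoter sequences below, from RefSeq on GRCm38.p6, run 5′ to 3′ along each gene's own strand and end shortly after the listed gene start. RefSeq promoters were matched for 9 of the 10 genes, all but Fancd2. The first set shows the genes where INO80 lay over the listed start, with the bases inside the INO80 peak in capitals.
Fancc (chr13:63431696-63431995, minus strand): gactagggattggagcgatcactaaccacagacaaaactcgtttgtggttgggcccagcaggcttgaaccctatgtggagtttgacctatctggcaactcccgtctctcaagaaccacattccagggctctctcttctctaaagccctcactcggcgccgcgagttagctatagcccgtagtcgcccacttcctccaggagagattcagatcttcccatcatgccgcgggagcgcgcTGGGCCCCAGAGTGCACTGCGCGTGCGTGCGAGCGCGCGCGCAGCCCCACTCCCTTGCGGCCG
Fancm (chr12:65075353-65075652, plus strand): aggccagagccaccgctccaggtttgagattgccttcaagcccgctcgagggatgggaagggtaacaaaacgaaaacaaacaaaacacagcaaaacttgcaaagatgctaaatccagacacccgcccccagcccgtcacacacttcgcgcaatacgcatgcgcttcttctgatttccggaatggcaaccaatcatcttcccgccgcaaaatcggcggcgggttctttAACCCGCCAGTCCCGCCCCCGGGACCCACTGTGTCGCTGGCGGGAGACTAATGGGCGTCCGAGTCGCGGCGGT
Blm (chr7:80534949-80535248, minus strand): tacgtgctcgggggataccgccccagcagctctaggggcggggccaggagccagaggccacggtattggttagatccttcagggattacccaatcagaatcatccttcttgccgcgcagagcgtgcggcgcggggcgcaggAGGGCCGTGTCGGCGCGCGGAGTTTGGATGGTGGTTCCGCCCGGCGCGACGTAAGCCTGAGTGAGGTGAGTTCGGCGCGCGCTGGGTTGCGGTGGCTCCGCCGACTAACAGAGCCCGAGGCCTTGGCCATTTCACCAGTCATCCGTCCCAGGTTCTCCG
The next pair are genes with H2A.Z over the listed start and no INO80 peak, with the bases under H2A.Z in both genotypes in capitals. Fanci also had this combination, and its promoter is not printed.
Fancb (chrX:164980342-164980641, plus strand): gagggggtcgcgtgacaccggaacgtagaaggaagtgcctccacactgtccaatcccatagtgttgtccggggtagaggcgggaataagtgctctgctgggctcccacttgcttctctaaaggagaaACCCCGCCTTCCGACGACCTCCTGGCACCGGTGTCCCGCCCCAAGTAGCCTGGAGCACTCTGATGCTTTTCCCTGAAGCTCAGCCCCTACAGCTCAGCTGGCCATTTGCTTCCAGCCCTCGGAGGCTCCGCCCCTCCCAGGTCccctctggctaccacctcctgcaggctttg
Fancl (chr11:26386834-26387133, plus strand): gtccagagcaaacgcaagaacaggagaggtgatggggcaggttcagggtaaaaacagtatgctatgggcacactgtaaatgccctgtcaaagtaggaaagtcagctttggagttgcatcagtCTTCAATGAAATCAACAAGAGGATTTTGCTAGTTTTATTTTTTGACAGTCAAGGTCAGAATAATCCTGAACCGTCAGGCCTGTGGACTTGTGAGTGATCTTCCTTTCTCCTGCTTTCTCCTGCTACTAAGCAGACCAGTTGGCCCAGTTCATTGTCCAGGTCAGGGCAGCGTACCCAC
The last pair are promoters that lay mostly between H2A.Z peaks in Ino80cKO cells, with CCAAT boxes on either strand in capitals.
Fanca (chr8:123318527-123318826, minus strand): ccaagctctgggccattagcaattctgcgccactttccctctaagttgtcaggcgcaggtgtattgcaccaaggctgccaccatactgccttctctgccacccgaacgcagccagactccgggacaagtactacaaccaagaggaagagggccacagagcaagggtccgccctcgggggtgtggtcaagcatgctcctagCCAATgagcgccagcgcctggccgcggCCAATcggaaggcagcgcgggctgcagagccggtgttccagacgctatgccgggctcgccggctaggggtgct
Brip1 (chr11:86201144-86201443, minus strand): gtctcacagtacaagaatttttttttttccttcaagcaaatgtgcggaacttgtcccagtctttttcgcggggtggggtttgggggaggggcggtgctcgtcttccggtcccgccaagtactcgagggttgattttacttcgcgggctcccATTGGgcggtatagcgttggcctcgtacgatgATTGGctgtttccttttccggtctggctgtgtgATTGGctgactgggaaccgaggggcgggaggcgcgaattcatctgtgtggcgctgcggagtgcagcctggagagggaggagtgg
The promoters of Fanca, Fancb, Fancc, Fancm, Fanci, Blm and Brip1 held between 13 and 32 CG dinucleotides in 300 bases, and those of Fancl and Slx4 held 3 (Fancl) and 4 (Slx4), against a median of 13 over 21238 promoters of protein-coding genes. CCAAT, the motif bound by NFY, stood on either strand in the promoters of 7 of the 9 genes and in 38.2% of all promoters. Brip1 held 3 copies and Fanca and Blm 2 each. The E2F motif TTCCCGCC was found at Fancb and Fancm (2.85% of all promoters), the ETS motif CCGGAAG at Brip1 (11.6%) and TATAAA at Slx4 (12.6%). The TATAAA of Slx4 began 1 base downstream of the listed start, in a promoter window that no peak of the 3 lists touched. Fancm held its CCAAT and TTCCCGCC motifs 63 and 54 bases upstream of the listed start, next to each other and outside the INO80 peak. The other motifs searched on both strands, the E2F motifs TTTGGCGC (0.636%) and TTTCCCGC (1.4%), which can overlap TTCCCGCC, the YY1 motif AAGATGGC (3.05%) and the NRF1 motif, a palindrome (1.33%), were in none of these 9 windows.

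INO80 peaks lay in the windows of 6 of the 10 genes (Fanca, Fancc, Fancm, Blm, Brip1 and Slx4), against 63.3% of all protein-coding genes, and these 6 also had H2A.Z in both genotypes (60.6% of all genes). H2A.Z peaks were present at 10 of 10 genes in Ino80cKO cells (70.1% of all genes) and at 10 of 10 in Ino80WT cells (73.6%). The windows of these genes were long, with a median of 71.7 kb against 27.2 kb for all genes, and among genes with windows in the same range of length the shares were 74.7% for INO80, 83.4% for Ino80cKO H2A.Z and 86.6% for Ino80WT H2A.Z. Fancb, Fancl, Fancd2 and Fanci had H2A.Z in both genotypes and no INO80 peak, a combination found at 8.93% of all genes. For Fancd2 this depended on the flank, since an INO80 peak of 392 bp (chr6:113604783-113605174), in the annotated range of the neighbouring gene Brk1, lay 7763 bp beyond its body and was counted with 10 kb on both sides. The Ino80cKO H2A.Z peak of Fancd2 also lies outside the gene body, and with the gene body alone Ino80cKO H2A.Z was present at 9 genes. Within 1 kb of the gene start, INO80 was present at 5 genes (56.0% of genes with a listed start), Ino80cKO H2A.Z at 9 (60.9%) and Ino80WT H2A.Z at 9 (63.9%). There Fancb, Fancl, Fancd2 and Fanci made up 4 of 9 with H2A.Z of both genotypes, where 12.9% of all such genes lacked INO80. Fancd2 has no listed start, and there both of its annotated ends were used.

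The 7 INO80 peaks at these genes were narrow. In order of width they measured 161 bp at Brip1, 167 bp at Fanca, 220 bp at Blm, 297 bp at Slx4, 458 and 603 bp at Fancm and 654 bp at Fancc, so 0 of 7 reached the list's median of 678 bp. Among all genes with INO80 in their window, the widest peak was under that median at 36.2%. Of the INO80 peaks within 1 kb of a listed gene start, 44.0% were under it, and their median width was 776 bp. The Brip1 and Fanca peaks stood at the 5.17th and 6.42nd width percentile of the INO80 list, close to its smallest width of 147 bp.

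**Figure D1:**
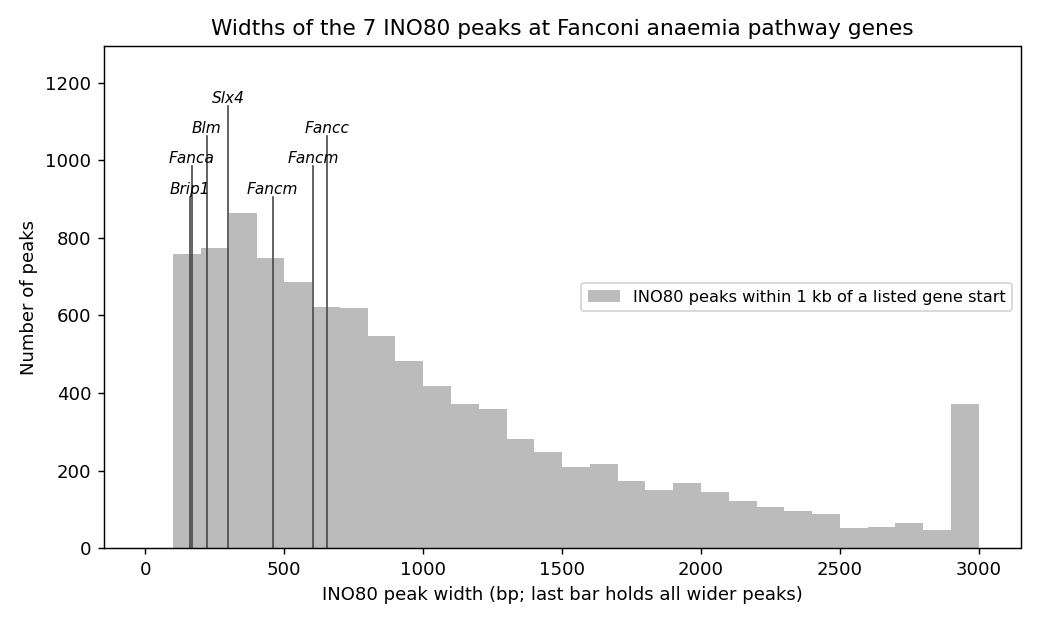
Number of INO80 peaks (vertical axis) by width in bp (horizontal axis) for peaks within 1 kb of a listed gene start (grey), with the 7 peaks of the Fanconi anaemia genes as lines. The lines run from 161 bp at Brip1 to 654 bp at Fancc, all to the left of the median of 776 bp of the grey peaks.

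Of these INO80 peaks, 5 lay within 1 kb of the listed start, and the midpoint of all 5 was downstream of it, as for 76.0% of INO80 peaks near gene starts in general. The midpoints were 0.5 bp (Blm), 130 bp (Brip1), 137 bp (Fanca), 205.5 bp (Fancm) and 313.5 bp (Fancc) downstream, against a median of 186 bp over all genes. The peaks of Fancc, Fancm and Blm covered the start itself, while those of Brip1 and Fanca began 50 and 54 bp after it. Of the 7 peaks, 2 lay wholly inside an Ino80cKO H2A.Z peak and 6 wholly inside an Ino80WT one, against 18.4% and 26.3% of all INO80 peaks, which are wider in general. The exception in the wild type was Blm, where 67.7% of the INO80 peak lay under Ino80cKO H2A.Z and 76.4% under Ino80WT H2A.Z.

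**Figure D2:**
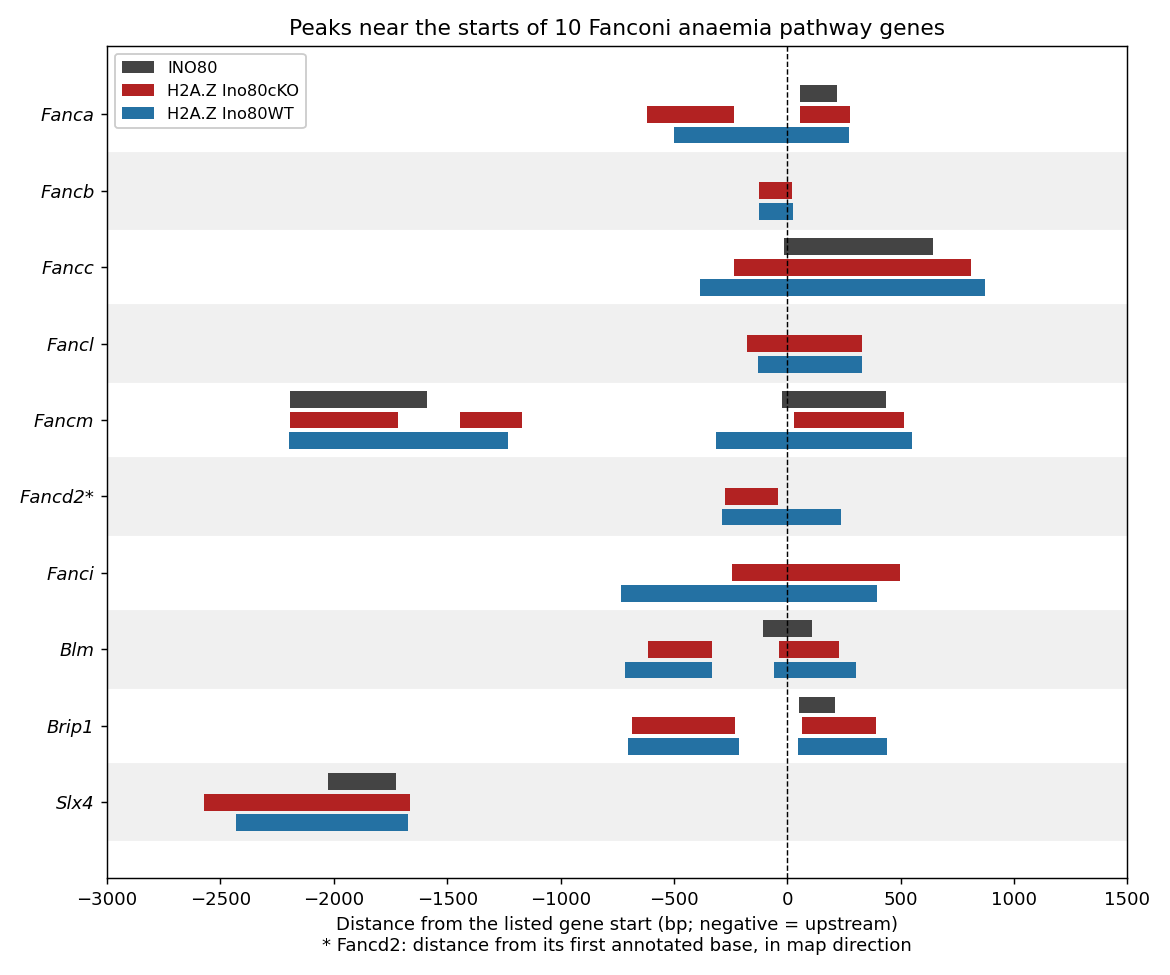
Peaks of INO80 (dark), Ino80cKO H2A.Z (red) and Ino80WT H2A.Z (blue) for each gene, by distance in bp from the listed gene start (for Fancd2 from its lowest annotated coordinate). The INO80 bars nearest the start lie wholly downstream of it at Fanca and Brip1 and reach over it at Fancc, Fancm and Blm, the Slx4 bar and the other Fancm bar lie upstream, and H2A.Z at Fanca is a single bar in Ino80WT and a pair of bars in Ino80cKO cells; the Ino80WT peaks at the far ends of Fancc and Fancd2 lie outside the plot.

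H2A.Z peaks of both genotypes that overlapped were joined into regions, and the windows of the 10 genes held 15 of them. Of these, 13 were shared, 0 were found in Ino80cKO cells alone and 2 in Ino80WT cells alone. In the windows of all protein-coding genes 74.9% of regions were shared, 4.07% were Ino80cKO only and 21.0% Ino80WT only. INO80 overlapped 7 of the 13 shared regions and neither of the Ino80WT-only regions, against 72.5% of shared and 25.4% of Ino80WT-only regions in the windows of all protein-coding genes. Both of these stood apart from the main peak of their gene. At Fancc the region was an Ino80WT peak of 544 bp over the outermost annotated end of the gene (chr13:63496789-63497332), 65044 to 65587 bp upstream of the listed start. At Fancd2 it was an Ino80WT peak of 248 bp (chr6:113600448-113600695) beyond the gene body, at the listed start of the neighbouring gene Fancd2os.

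Over the 10 windows, H2A.Z peaks covered 6746 bp in Ino80cKO cells and 9297 bp in Ino80WT cells, a ratio of 0.726. Coverage was lower in Ino80cKO cells at 7 of the 10 genes, against 79.4% of all genes with any H2A.Z peak. It was higher at 2 (Fancl and Slx4) and equal at Fancb. The median ratio over the genes was 0.758, against 0.813 over the 16104 genes with an Ino80WT peak (quartiles 0.597 and 0.966). For the widest peak within 1 kb of the gene start, the ratio had a median of 0.739 over 9 genes (range 0.447 to 1.11) and 0.893 over 10549 genes (quartiles 0.686 and 1.01). It was below 1 at 7 of 9 genes, against 72.4% of all genes. Fancd2, which gave the lowest ratio, entered through its annotated ends, whereas the 10549 genes all have a listed start.

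**Figure D3:**
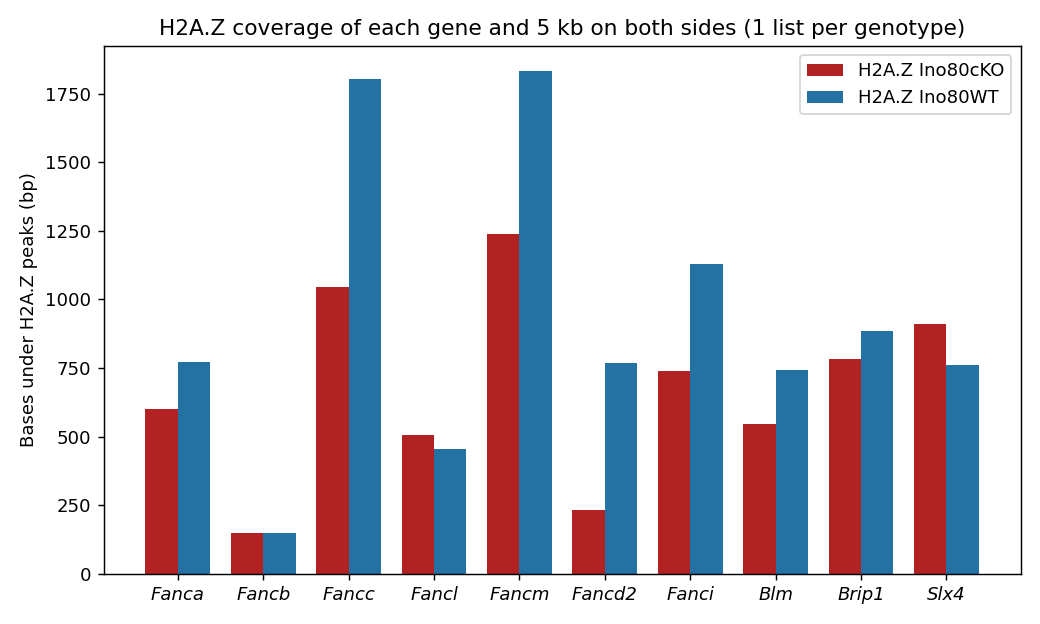
Bases under H2A.Z peaks (vertical axis, bp) in the window of each gene (horizontal axis), with Ino80cKO (red) left of Ino80WT (blue) and no replicate error because each genotype has 1 list. The Ino80cKO bar is the lower one at 7 genes, the higher one at Fancl and Slx4, and equal at Fancb.

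**Figure D4:**
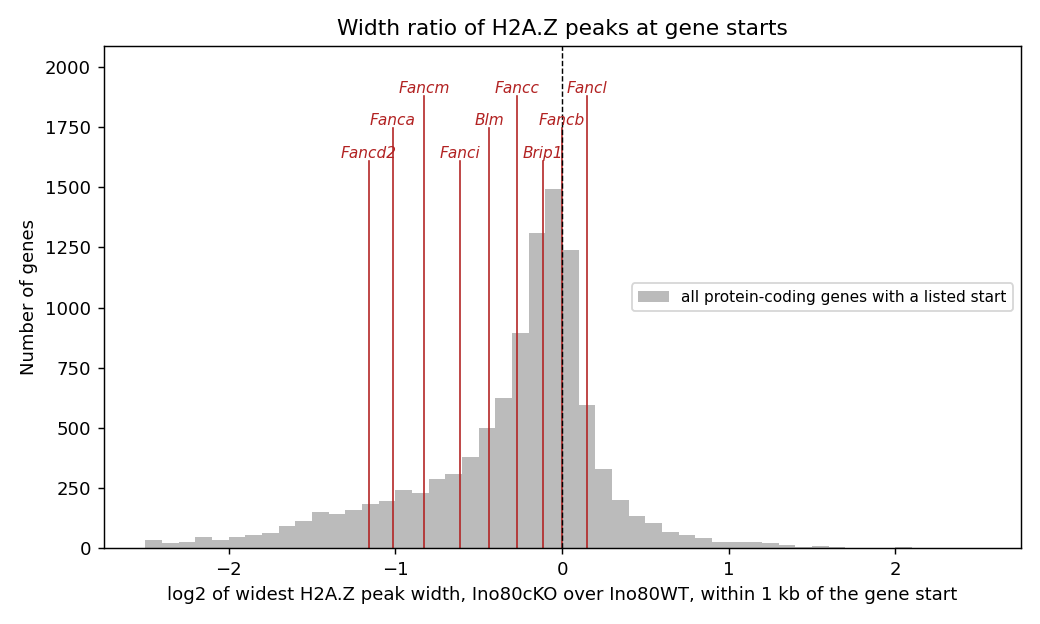
Number of protein-coding genes (vertical axis) by the log2 ratio of the widest H2A.Z peak within 1 kb of the gene start, Ino80cKO over Ino80WT (horizontal axis; the end bars also hold more extreme values), with 9 Fanconi anaemia genes as red lines. The lines spread from a ratio of 0.447 at Fancd2 to 1.11 at Fancl, and 7 lie left of the dashed line of equal width. Fancd2 was measured at its annotated ends, all other genes at listed starts.

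Among the core complex genes, Fanca encodes the large subunit that is most often mutated in human Fanconi anaemia. Its start (chromosome 8, gene 123266294 to 123318651) carried H2A.Z peaks of 218 and 381 bp in Ino80cKO cells, against a single peak of 771 bp in Ino80WT cells. The Ino80cKO peaks lay on either side of the listed start and left a gap of 294 bp, which held the start and both CCAAT boxes of the printed promoter. Such a division of 1 Ino80WT peak into 2 or more Ino80cKO peaks was found in 5.73% of shared regions at listed gene starts. The outer edges differed by 3 bp downstream, and upstream Ino80cKO H2A.Z reached 119 bp further out. The 167 bp INO80 peak (chr8:123318356-123318522) coincided with the downstream Ino80cKO peak, which held 97.6% of it.

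Fancb lies on the X chromosome, which is transcriptionally silenced in pachytene spermatocytes, and its product works with the ligase subunit encoded by Fancl. It had the smallest peaks of the 10 genes, 147 bp in Ino80cKO cells (chrX:164980465-164980611) and 147 bp in Ino80WT cells (chrX:164980469-164980615), the smallest width in either list. The positions differed by 4 bp and the peaks covered the start in both genotypes. The listed start of Mospd2, on the opposite strand, lies 217 bp away and falls outside both peaks, but the gene ranges overlap, so a peak here cannot be assigned to Fancb alone.

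Fancc encodes a core subunit that bridges to the clamp through the Fance protein. It had the widest peaks of the set at the listed start, which lies inside its annotated body of 196.0 kb. H2A.Z spanned 1047 bp in Ino80cKO cells (chr13:63430936-63431982) and 1261 bp in Ino80WT cells (chr13:63430872-63432132), at the 89.0th and 93.1st width percentile of their lists. Ino80cKO H2A.Z ended 150 bp short of Ino80WT on the upstream side and 64 bp short downstream. The 654 bp INO80 peak lay wholly inside both.

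Fancl encodes the ubiquitin ligase subunit itself, and a mutation of the mouse gene is known for germ cell deficiency. Its H2A.Z peak measured 506 bp in Ino80cKO cells (chr11:26386906-26387411) and 456 bp in Ino80WT cells (chr11:26386956-26387411). The downstream edge was at the same base in both genotypes, and the upstream edge reached 50 bp further in Ino80cKO cells. This was the only gene of the 9 compared at the start with a wider peak in Ino80cKO cells, and its promoter had the fewest CG dinucleotides of the 9 matched in RefSeq.

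Fancm encodes a DNA translocase that brings the core complex to stalled forks. At its listed start H2A.Z measured 488 bp in Ino80cKO cells (chr12:65075631-65076118) and 865 bp in Ino80WT cells (chr12:65075288-65076152). Most of the difference was upstream, where Ino80cKO H2A.Z ended 343 bp short of Ino80WT, against 34 bp downstream. The listed start was thus under H2A.Z in Ino80WT cells and 28 bp outside the peak in Ino80cKO cells. Of the 9 genes with a listed start, H2A.Z covered the start base at 5 in Ino80cKO and 7 in Ino80WT cells, with Fanca and Fancm making the difference. Of all starts under Ino80WT H2A.Z, 22.2% had no Ino80cKO peak over them.

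A further region, upstream of the listed start of Fancm, lies over the outermost annotated end of that gene. It also holds the listed start of Fkbp3, a peptidyl-prolyl isomerase gene on the opposite strand, 1665 bp from the listed start of Fancm. There H2A.Z formed peaks of 475 and 274 bp in Ino80cKO cells, separated by 274 bp, against a single peak of 968 bp in Ino80WT cells. An INO80 peak of 603 bp (chr12:65073410-65074012) lay wholly within the Ino80WT peak, and 78.6% of it was under H2A.Z in Ino80cKO cells. Fanca and this Fancm region were the 2 of 13 shared regions that were divided in Ino80cKO cells.

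Neither clamp gene had an INO80 peak within 5 kb of its body, and at both the H2A.Z peak was narrower in Ino80cKO cells. Fancd2 encodes the subunit whose ubiquitination is the usual readout of pathway activation. At its lowest annotated coordinate Fancd2 adjoins Emc3, a minus-strand gene for a subunit of the endoplasmic reticulum membrane complex. There H2A.Z measured 233 bp in Ino80cKO cells (chr6:113531367-113531599) and 521 bp in Ino80WT cells (chr6:113531354-113531874). The ratio of 0.447 was the lowest of the 9 genes. The edges on the Emc3 side differed by 13 bp. On the Fancd2 side the Ino80cKO peak ended 275 bp short and stopped 41 bp before the annotated body of Fancd2, whereas the Ino80WT peak reached 234 bp into it. The listed start of Emc3 (chr6:113531638) adjoins the Fancd2 body, and the Ino80cKO peak lies wholly in the annotated range of Emc3. These peaks and their ratio therefore cannot be assigned to Fancd2 alone.

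Fanci encodes the partner subunit of the clamp. Its H2A.Z peak measured 739 bp in Ino80cKO cells (chr7:79392095-79392833) and 1130 bp in Ino80WT cells (chr7:79391603-79392732). On the upstream side Ino80cKO H2A.Z ended 492 bp short, the largest edge difference among the 13 shared regions, and on the downstream side it reached 101 bp further into the gene. The annotated range of Rlbp1, a retinoid-binding protein gene on the opposite strand, overlaps the peaks of both genotypes, and its listed start lies 5311 bp from that of Fanci.

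Among the helicase genes, Blm encodes the RecQ helicase that resolves recombination intermediates without crossing over. A pair of H2A.Z peaks stood at its start in both genotypes. The downstream peak measured 264 bp in Ino80cKO cells and 358 bp in Ino80WT cells, and the upstream peak 283 bp in Ino80cKO cells and 383 bp in Ino80WT cells. The space between them was 295 bp in Ino80cKO and 277 bp in Ino80WT cells. The edges facing the space differed by 19 bp and 1 bp, while the outer edges of the Ino80cKO peaks lay 75 and 101 bp inside those of Ino80WT. The 220 bp INO80 peak (chr7:80534888-80535107) was centred on the listed start and reached into this space.

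Brip1 encodes a helicase that binds the Brca1 protein. It showed the same arrangement, with a downstream H2A.Z peak of 327 bp in Ino80cKO and 392 bp in Ino80WT cells and an upstream peak of 455 bp in Ino80cKO and 493 bp in Ino80WT cells. The space between the peaks was 294 bp in Ino80cKO and 258 bp in Ino80WT cells, and the listed start lay in it in both genotypes, together with all 3 CCAAT boxes. All 4 edges of the Ino80cKO peaks lay inside those of Ino80WT, by 18 to 47 bp. The upstream peak overlaps the annotated range of the noncoding RNA gene Brip1os. INO80 (chr11:86200983-86201143) lay on the downstream peak alone, as at Fanca.

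Slx4 encodes the platform on which several nucleases assemble. No list had a peak within 1 kb of its listed start, and all its peaks lay at the outermost annotated end of the gene. H2A.Z there measured 909 bp in Ino80cKO cells (chr16:4003341-4004249) and 760 bp in Ino80WT cells (chr16:4003352-4004111), a ratio of 1.2, the highest among the 13 shared regions. The difference was on the side away from the gene, where Ino80cKO H2A.Z reached 138 bp further. The INO80 peak of 297 bp (chr16:4003406-4003702) lay wholly inside both H2A.Z peaks.

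Taking the 12 shared regions of genes with a known strand, Ino80cKO H2A.Z ended short of Ino80WT on the upstream side in 8 and on the downstream side in 6, against 66.9% and 64.4% at listed starts of all genes. The Slx4 region and the Fancm region at Fkbp3 lie more than 1 kb from the listed start, outside the window used for all genes. The median difference in reach was -18.5 bp upstream and -2 bp downstream, against -22 and -23 bp over all genes. Upstream differences ranged from 492 bp short at Fanci to 138 bp further out at Slx4. The direction was mixed among the genes at either edge.

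The pathway's other genes are a list of 28 that includes the remaining core subunits, the deubiquitinase pair, recombination mediators and nuclease partners. In the same windows they held INO80 at 25 (63.3% of all protein-coding genes), Ino80cKO H2A.Z at 27 (70.1%) and Ino80WT H2A.Z at 28 (73.6%). H2A.Z coverage was lower in Ino80cKO cells at 23 of them and higher at 5, with a median ratio of 0.83. The share with lower coverage was 79.4% among all genes with any H2A.Z peak. The regions of these 28 genes were 37 shared, 0 Ino80cKO only and 8 Ino80WT only (74.9%, 4.07% and 21.0% over all gene windows). The genes without INO80 were Faap24, whose product pairs with the Fancm protein, the nuclease gene Fan1 and Palb2, which encodes the link between the Brca1 and Brca2 proteins. Mus81, a structure-specific nuclease gene, was the gene without a shared region, with no Ino80cKO peak and 450 bp of Ino80WT H2A.Z in its window. The widest INO80 peaks measured 2392 bp at Rmi1, which encodes a partner of the Blm protein, 2201 bp at Mad2l2, a translesion synthesis and repair gene, and 2193 bp at Usp1, the deubiquitinase gene of the clamp, each wider than any of the 7 INO80 peaks at the 10 genes above.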

How the data were processed

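The authors deposited 1 list of peak positions for each of the 3 ChIP groups, holding chromosome, start and end (build mm10) and no score, signal or count. Bowtie2, SAMtools, deepTools and MACS2 are named, without roles or versions, in the submitters' processing notes; the sources used here give neither the threshold nor the control nor how libraries were combined. Per the labels' protocols, chromatin was cut with micrococcal nuclease, so outlines also follow nucleosome positions. Input libraries were not analysed here, and the labels do not say whether libraries came from separate animals.

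Starts were converted to 1-based positions. Peaks were assigned to a gene when they overlapped its RefSeq body and 5 kb on both sides by at least 1 bp. Listed gene starts came from the RefSeq promoter table (17492 protein-coding genes). The groups followed the sample titles. No test was run, because each genotype has 1 list; shares over all protein-coding genes (chromosomes 1 to 19 and both sex chromosomes) stand beside the main counts. The genes, lists and settings were chosen with earlier results of these data known. All 10 genes are named. Of the other pathway genes, those without INO80, those without a shared region and the 3 with the widest INO80 peak are named. The software was Python 3.11.15 with pandas 2.3.3, numpy 2.4.6 and, for plots, matplotlib 3.10.9. Overlap counts equalled those of bedtools 2.31.1 for 6 of 6 ordered pairs of lists, and the joining of regions was tested on simulated data.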

Additional observations from a re-analysis of the deposited data

How the results depend on the processing

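Of 42 alternative values, 35 stayed within 1.5 times the reported count, or within 1 SD (0.232) over genes of the reported ratio, and 7 did not. With the widest 50% of each list, INO80 was left at 0 of the 10 genes, since all 7 of its peaks were under the median width; Ino80cKO H2A.Z was left at 6 genes, and 6 regions were shared. That setting also gave 1 Ino80cKO-only region, at Fancl, whose narrower Ino80WT peak was removed. Shortening the Ino80WT list by width to the length of the Ino80cKO list likewise gave 1 Ino80cKO-only region, at Fancb, by the same construction. With 10 kb on both sides INO80 was present at 7 genes, Fancd2 added. With the gene body alone, and with 1 kb on both sides, 1 Ino80WT-only region remained in place of 2, since the peak at Fancd2os lies further out. The median width ratio at the gene start was 0.739 with 500 bp, 0.785 with 3 kb and 0.758 for all peaks summed. Counting genes only within 1 kb of the start, a setting chosen after seeing the data, gave INO80 at 5, Ino80cKO H2A.Z at 9 and Ino80WT H2A.Z at 9 genes, because the peaks of Slx4 lie further from its listed start. No paired analysis was possible because each group is deposited as 1 list without values per library, and for the same reason no library could be left out. Unknown depth and threshold limit every statement on a missing or narrower peak.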
